A study of Homo sapiens with 8 samples.

Results

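Glycolytic enzymes and hypoxia-response genes were examined in K562 cells, a human erythroleukaemia line, as 34 genes among the 21212 that had spliced reads in any library. The genes were chosen by name from these pathways, and the list was proposed with gene levels of these same libraries known, so the gene levels below are descriptions and not independent evidence. They fall into 16 glycolytic enzymes, 15 targets of hypoxia-inducible factor (HIF) that are not glycolytic enzymes, and 3 HIF subunits. The cells carried the splicing factor SF3B1 as wild type (WT) or with the K700E substitution, and all samples, WT included, were listed under 1 ug/ml doxycycline, which induces the modified allele. RNA was taken at day 4 and at day 8, with 2 libraries of each genotype at each day and 8 libraries in all. Nothing in the labels says that the replicates came from separate cultures or clones, so p-values measure only the spread between these libraries, which may be technical. Oxygen level during culture is not given in the sources used here.

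Glycolysis splits glucose to pyruvate in the cytosol, and lactate dehydrogenase then turns pyruvate to lactate when oxygen is short or glycolysis runs fast. HIF is a dimer of an oxygen-regulated alpha subunit (HIF1A or EPAS1) and the constant partner ARNT. In oxygen, prolyl hydroxylases of the EGLN family mark the alpha subunit for binding by VHL and destruction, and in hypoxia the dimer binds a short DNA core, the hypoxia response element, near its targets. Many glycolytic enzymes, glucose transporters, mitophagy receptors and collagen-modifying enzymes are textbook targets. Leukaemia lines such as K562 rely on glycolysis also in normal oxygen.

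The core of the hypoxia response element, ACGTG or GCGTG, is shown for some of the members below. In RefSeq promoters (GRCh38.p14), 30 of the 34 genes matched, with 55 windows of 250 bases before a start site. On either strand, 31 of the 55 windows held ACGTG or GCGTG, 56.4%, against 43.2% of all 35116 promoter windows. The palindrome CACGTG, which counts as an ACGTG on both strands, was in 7 of the 55 windows, 12.7%, and in 6.34% of all. Windows of 1 gene can overlap and share a match, as in KDM3A, and PFKM and HK1 have 7 windows each. The members were picked from these pathways, and the difference in shares was not tested. Capitals mark 1 match per line (CACGT is ACGTG read on the opposite strand), the strand shown is the gene's own, and each stretch is at most 30 bases long. Further matches inside the PDK1, PGK1 and BNIP3 stretches are left in lower case. A match describes letters only and is no evidence of binding.
LDHA, chr11:18394366-18394395 (+): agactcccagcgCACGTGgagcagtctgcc
LDHA, chr11:18394464-18394493 (+): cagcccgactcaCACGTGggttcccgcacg
ALDOA, chr16:30064373-30064402 (+): tggcagggaggcCACGTGatccgagtcccc
GAPDH, chr12:6535171-6535200 (+): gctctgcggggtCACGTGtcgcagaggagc
PGK1, chrX:78104034-78104062 (+): gcggcgtgccggACGTGacaaacggaagc
GPI, chr19:34364818-34364846 (+): acactgcctgtaACGTGgaaggtgttcga
P4HA1, chr10:73096936-73096964 (-): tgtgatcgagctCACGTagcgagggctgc
PDK1, chr2:172556061-172556089 (+): cctgctgcccgcCACGTccctcacgtacc
ANKRD37, chr4:185396667-185396696 (+): ggcgccgggctcCACGTGccagtgtttgtg
BNIP3, chr10:131982040-131982069 (-): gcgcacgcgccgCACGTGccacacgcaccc
PFKP, chr10:3069038-3069066 (+): ccacgagcgcctACGTGatgcccggcccg
HIF1A, chr14:61695297-61695325 (+): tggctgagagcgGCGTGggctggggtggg
The lines from LDHA to PDK1 belong to the 7 genes called at day 4, ANKRD37 and BNIP3 are further targets that were lower there, and PFKP and HIF1A were higher in K700E. LDHB, PGAM1, P4HA2, SLC2A1, EGLN3 and ARNT had 1 window each and no match in it.

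The libraries held 49338071 to 77750812 uniquely mapped junction reads. Gene levels are CPM, edgeR's read counts scaled to library size with TMM factors, summed over the introns of a gene. Because the total depends on the number of introns, levels of different genes are compared only per intron. The genotype labels were checked in 15 known K700E target genes. In each, an acceptor 10 to 30 nt upstream of the most used acceptor of its donor was taken. It was the one with most reads over the 8 libraries and was not matched to a published site. Median use at day 4 was 1.44% and 1.93% in WT and 33.0% and 37.9% in K700E. The day 8 medians were 0% and 39.7% for the label WT and 2.39% and 37.3% for the label K700E. WT replicate 2 and K700E replicate 1 of day 8 thus went against their labels, and no library was moved. The day 8 counts of members below 0, the list medians and the changes of members whose day 8 groups did not overlap are also given without each of these libraries. Erythroid markers summed to 1039 to 2436 CPM and epithelial markers to 488 to 2608 CPM, the latter mostly the keratins KRT8 (164 to 1029 CPM) and KRT18 (216 to 1192 CPM), with no read for KRT5. The labels call the cells epithelial, and reads of both lists were present. Lymphoid markers summed to 0.736 to 7.76 CPM and myeloid markers to 96.1 to 288 CPM.

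Members were lower in K700E at day 4 almost throughout. The fitted log2 change was below 0 for 32 of 34 members, with a median of -0.95, against a median of 0.0009 over the 13991 genes tested. At an adjusted p under 0.05 by edgeR's quasi-likelihood test, 7 members were called, all lower in K700E: the enzymes ALDOA, LDHA, GPI, PGK1 and GAPDH and the targets P4HA1 and PDK1. The same rule called 0.543% of all genes, and 0.314% of all genes as lower. Both K700E libraries lay below both WT libraries for 30 members and above them for 2 (PFKP and HIF1A), where 28.2% of all genes were separated downward and 26.4% upward. Since the list was proposed from these values, nothing is read from the difference between the members and the background. In bulk RNA, fewer cells of a type and less RNA per cell cannot be told apart.

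The call itself depended on which libraries were fitted. Leaving out 1 library leaves a lone sample that is assumed to vary like the other group. Without either WT day 4 library 0 members and 0 genes were called, with 1440 and 1422 genes at an unadjusted p under 0.05, and the 8-library model also called 0, with 1449 at that level. DESeq2 called 24 members, all lower, where it called 6.15% of all genes lower and 5.57% higher. Between 30 and 32 members stayed below 0 in each alternative that was run. The 30 members separated downward at day 4 cannot change sign when 1 library is left out, so this count is no separate support.

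**Figure D1:**
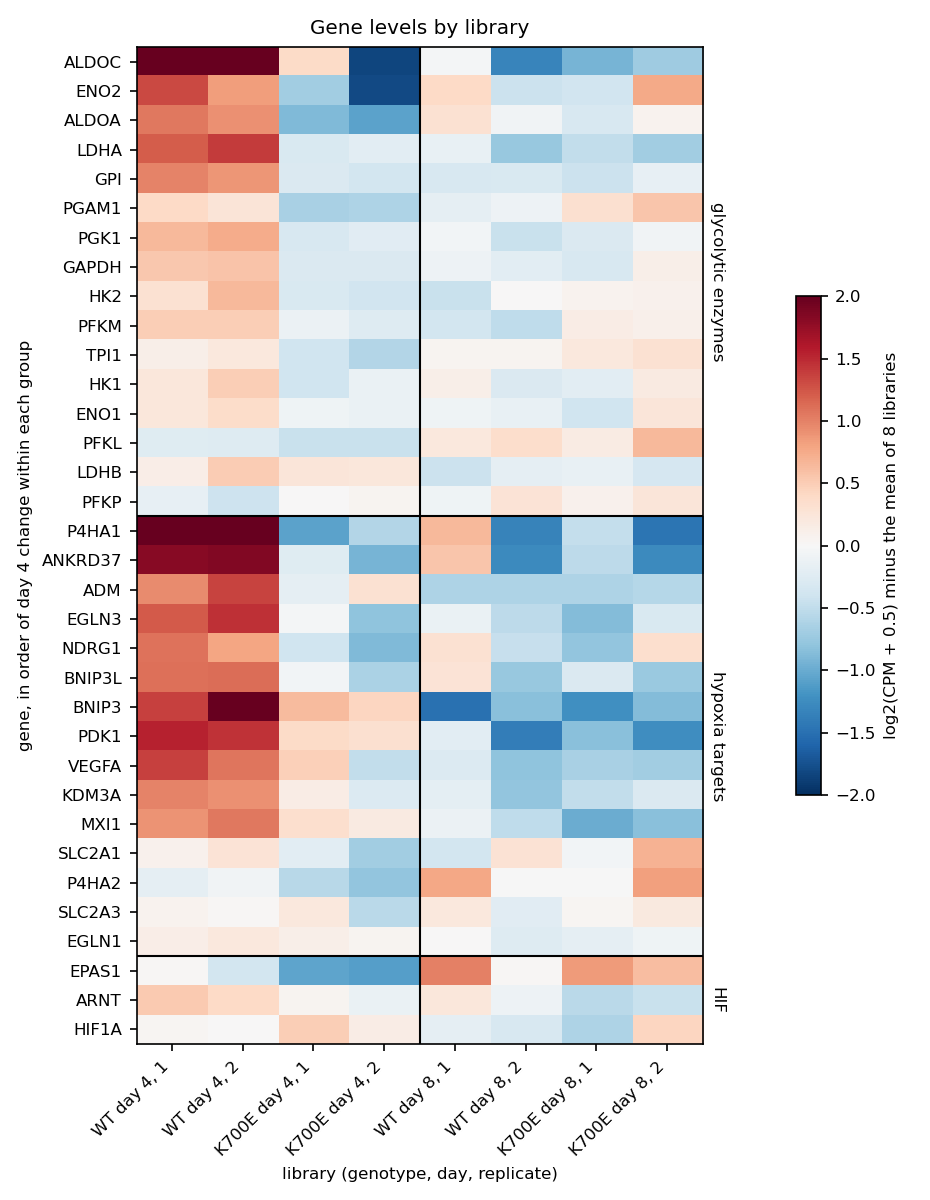
Levels of the 34 genes in the 8 libraries, as log2(CPM + 0.5) minus the mean of the gene over the 8 libraries, with genes in rows by group and libraries in columns. The 2 WT day 4 columns are red for most enzymes and targets, and 23 of the 34 genes were higher in both of them than in each of the other 6 libraries.

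Most members had their highest values in the WT day 4 libraries. Both WT day 4 libraries exceeded the other 6 in 10 of 16 enzymes, 12 of 15 targets and 1 of 3 HIF subunits, and in 13.6% of the genes tested. The 16 enzymes summed to 14030 and 14748 CPM in WT and to 7903 and 7751 CPM in K700E at day 4. At day 8 the sums were 8818 and 7958 CPM in the libraries labelled WT and 7618 and 9895 CPM in those labelled K700E. These enzyme sums leave out introns shared with another gene, which held 94.0% of ALDOA reads and 83.2% of LDHB reads. Genes with many reads weigh most in them. For the 15 targets the sums were 2740 and 2827 CPM against 1401 and 1029 CPM at day 4, and 1624 and 1003 CPM against 1164 and 1340 CPM at day 8. The day 4 groups did not overlap in either sum, and the day 8 groups overlapped in both. Each day 8 group holds 1 library that went against its label, so this overlap does not show how the genotypes compare at day 8.

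The first steps of glycolysis commit glucose to the pathway. HK1, the main hexokinase of blood cells, had 767 and 929 CPM in WT and 502 and 602 CPM in K700E at day 4 (log2 change -0.62, SE 0.16, adjusted p 0.129). HK2, the hexokinase that hypoxia induces, had 138 and 174 CPM against 90.0 and 85.2 CPM (log2 change -0.83, SE 0.16, adjusted p 0.0890). Neither passed the test, although the day 4 groups did not overlap in either gene. At day 8 HK1 had 718 and 539 CPM in the libraries labelled WT and 572 and 745 CPM in those labelled K700E, and HK2 had 81.3 and 112 against 116 and 118 CPM. Per intron, HK1 was higher than HK2, with medians of 51.9 and 8.74 CPM in WT at day 4.

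GPI (ENSG00000105220.15, chromosome 19, 34359480 to 34402413 on hg38), which turns glucose 6-phosphate to fructose 6-phosphate, had 1563 and 1435 CPM in WT and 640 and 605 CPM in K700E at day 4. It was 2.41-fold lower in K700E (log2 change -1.27, SE 0.12, adjusted p 0.0324). Its day 8 values of 624, 630, 581 and 701 CPM, WT first, lay below both WT day 4 libraries. All 17 of its main introns, those with at least 10% of the reads of the top intron, were lower in both K700E day 4 libraries than in both WT libraries. Here and below, except in LDHB, these are largely the reads summed for the gene level. Intron counts thus describe how even a change was along a gene and are no separate support.

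The phosphofructokinases, which catalyse the main control step, did not share a direction. PFKM, the muscle isoform, had 120 CPM in both WT libraries and 78.5 and 71.6 CPM in K700E at day 4 (log2 change -0.68, SE 0.12, adjusted p 0.0871). PFKL, the liver isoform and the highest of the 3 per intron, had 331 and 326 against 287 and 284 CPM (log2 change -0.20, SE 0.11, adjusted p 0.367). PFKP, the platelet isoform, had 211 and 177 against 239 and 247 CPM (log2 change 0.33, SE 0.14, adjusted p 0.256). PFKM and PFKL were thus lower in K700E without overlap and PFKP higher without overlap, and none of the 3 passed the test. Median CPM per intron in WT at day 4 was 17.7 for PFKL, 9.91 for PFKP and 5.52 for PFKM. At day 8 PFKM had 66.1 and 59.6 CPM in the libraries labelled WT and 94.96 and 91.8 CPM in those labelled K700E. PFKL had 450 and 498 against 435 and 612 CPM there, and PFKP 224 and 286 against 251 and 282 CPM.

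Aldolase cleaves fructose 1,6-bisphosphate. ALDOA (ENSG00000149925.18, chromosome 16, 30064164 to 30070457) had 238 and 216 CPM in WT and 61.3 and 54.1 CPM in K700E at day 4, 3.93-fold lower in K700E (log2 change -1.98, SE 0.14, adjusted p 0.0201). Those values rest on few of its reads, since 94.0% lay in introns that the annotation shares with the readthrough gene AC093512.2. With these introns counted for ALDOA, the levels were 4482 and 3954 against 1252 and 1061 CPM (log2 change -1.87, SE 0.14, adjusted p 0.0210). At day 8 the same count gave 1774 and 1233 CPM in the libraries labelled WT and 1590 and 2003 CPM in those labelled K700E. ALDOC, the brain isoform, had 583 and 550 CPM in WT and 158 and 33.4 CPM in K700E at day 4, and 117 and 48.0 against 63.3 and 73.3 CPM at day 8. Its K700E day 4 replicates lay far apart, and its change (log2 change -2.57, SE 0.69, adjusted p 0.135) did not pass the test.

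TPI1, which interconverts the products of aldolase, had 434 and 461 CPM in WT and 302 and 266 CPM in K700E at day 4 (log2 change -0.65, SE 0.13, adjusted p 0.0928). GAPDH (ENSG00000111640.14, chromosome 12, 6533927 to 6538374), the step that makes NADH and a common reference gene, had 2785 and 2838 against 1566 and 1562 CPM. It was 1.80-fold lower in K700E (log2 change -0.85, SE 0.10, adjusted p 0.0457). PGK1 (ENSG00000102144.14, chromosome X, 77910739 to 78129296), the first step that yields ATP, had 709 and 755 against 360 and 384 CPM, 1.97-fold lower in K700E. Its log2 change was -0.98 (SE 0.12, adjusted p 0.0465). The GAPDH and PGK1 calls lay close to the threshold, since with library totals in place of TMM both had an adjusted p of 0.0529. At day 8 GAPDH had 1794 and 1655 CPM in the libraries labelled WT and 1533 and 2069 CPM in those labelled K700E, and PGK1 had 436 and 332 against 369 and 429 CPM. TPI1 had 416 and 414 against 463 and 493 CPM at day 8.

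PGAM1, which moves the phosphate of phosphoglycerate, had 76.5 and 69.4 CPM in WT and 36.5 and 37.4 CPM in K700E at day 4 (log2 change -0.98, SE 0.13, adjusted p 0.0607). In this gene 29.3% of all reads mapped to several places, as near-identical copies exist, and with those reads counted the levels were 106 and 97.0 against 53.0 and 52.1 CPM. At day 8 it ran the other way, with 51.0 and 53.9 CPM in the libraries labelled WT and 72.3 and 84.9 CPM in those labelled K700E. PGAM1 and PFKM were lower without overlap at day 4 and higher without overlap at day 8, and so were HK2 and TPI1. The test of the difference between days gave PGAM1 an interaction of 1.57 (SE 0.23, adjusted p 0.275) and PFKM one of 1.25 (SE 0.21, adjusted p 0.424), so neither difference passed it. Each day 8 group holds 1 library that went against its label.

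Enolase makes phosphoenolpyruvate. ENO1, the general isoform, had 3043 and 3362 CPM in WT and 2456 and 2372 CPM in K700E at day 4 (log2 change -0.41, SE 0.11, adjusted p 0.133). ENO2, the neuronal isoform, had 323 and 230 against 79.6 and 36.7 CPM (log2 change -2.25, SE 0.40, adjusted p 0.0845). ENO1 was the higher of the pair, with a median of 315 CPM per intron against 25.5 CPM in WT at day 4. At day 8 ENO1 had 2437 and 2357 CPM in the libraries labelled WT and 1978 and 3077 CPM in those labelled K700E, and ENO2 had 171 and 95.7 against 98.8 and 218 CPM.

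Lactate dehydrogenase had 1 paralogue called and 1 not. LDHA (ENSG00000134333.13, chromosome 11, 18394388 to 18408425), the subunit that favours making lactate, had 2566 and 2922 CPM in WT and 894 and 956 CPM in K700E at day 4. It was 2.97-fold lower in K700E (log2 change -1.57, SE 0.12, adjusted p 0.0258). LDHB, the subunit that favours using lactate, had 142 and 185 against 153 and 153 CPM (log2 change -0.09, SE 0.16, adjusted p 0.784). With introns shared with AC010197.2, which hold 83.2% of its reads, LDHB had 841 and 999 against 921 and 916 CPM and a log2 change of -0.0020 (SE 0.13). The difference between the paralogues was not tested. At day 8 LDHA had 997 and 654 CPM in the libraries labelled WT and 782 and 679 CPM in those labelled K700E, and LDHB had 96.5 and 115 against 117 and 103 CPM. All 7 main introns of LDHA were lower in both K700E day 4 libraries, and none of the 7 of LDHB was.

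**Figure D2:**
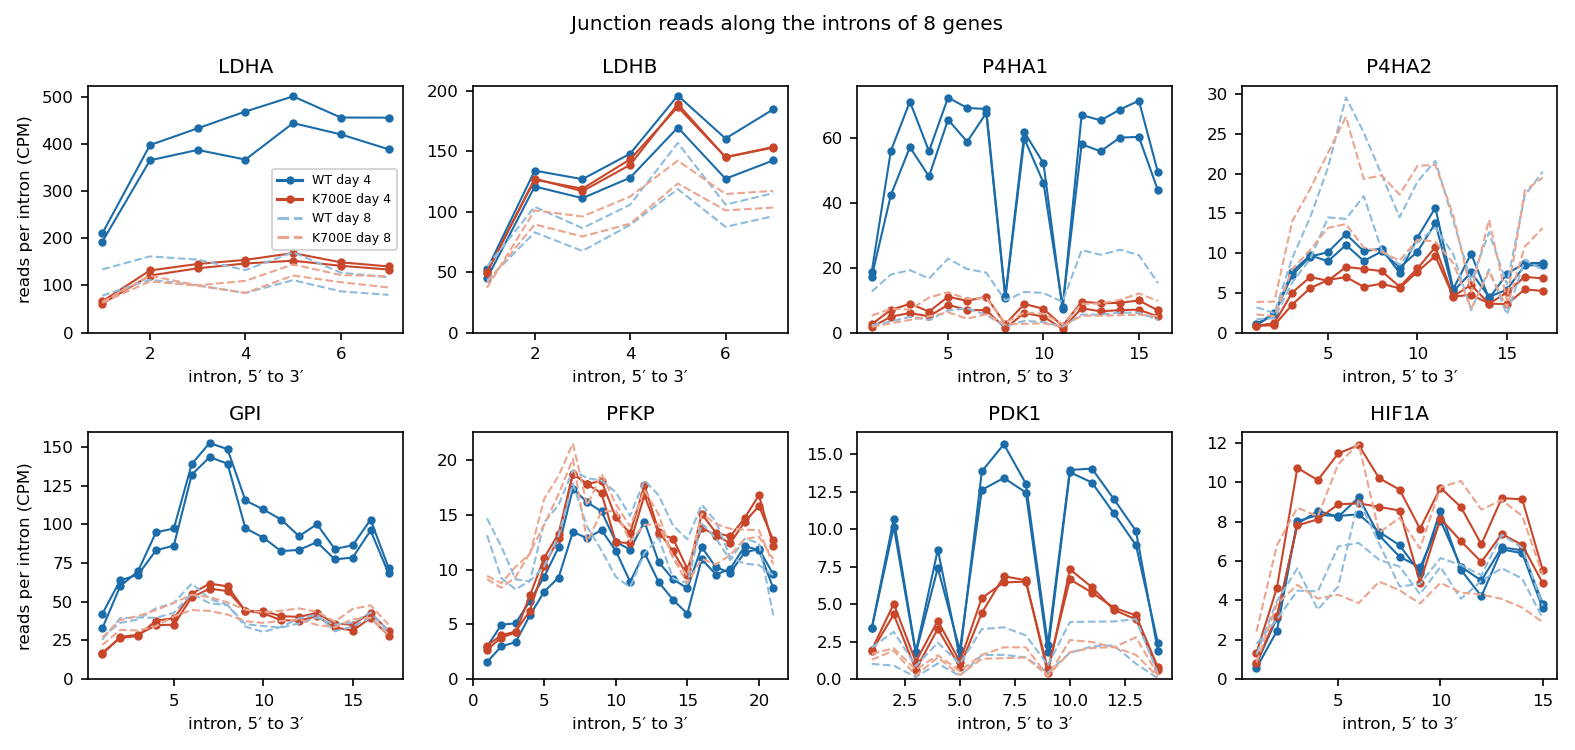
Junction reads per intron (CPM, linear axes from 0) along the main introns of 8 genes, 5′ to 3′, with 1 line per library, solid at day 4 and dashed at day 8. LDHA, GPI, P4HA1 and PDK1 have both WT day 4 lines above both K700E day 4 lines at every main intron, whereas LDHB has them interleaved and PFKP has 16 of 21 introns higher in K700E.

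Among targets that are not enzymes of glycolysis, P4HA1 changed most. P4HA1 (ENSG00000122884.12, chromosome 10, 73007217 to 73096974), a collagen prolyl hydroxylase subunit, had 762 and 869 CPM in WT and 86.6 and 122 CPM in K700E at day 4. It was 7.80-fold lower in K700E (log2 change -2.96, SE 0.21, adjusted p 0.0201), and all 16 main introns were lower in both K700E libraries. At day 8 it had 286 and 72.2 CPM in the libraries labelled WT and 132 and 65.9 CPM in those labelled K700E, where the groups overlapped. Its paralogue P4HA2 had 133 and 144 against 103 and 86.8 CPM at day 4 (log2 change -0.54, SE 0.14, adjusted p 0.133), and 259 and 149 against 150 and 266 CPM at day 8. All 4 day 8 libraries were above all 4 day 4 libraries in P4HA2, and below both WT day 4 libraries in P4HA1.

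PDK1 (ENSG00000152256.13, chromosome 2, 172555373 to 172608669), a kinase that inhibits pyruvate dehydrogenase, had 123 and 115 CPM in WT and 54.5 and 52.1 CPM in K700E at day 4. It was 2.23-fold lower in K700E (log2 change -1.15, SE 0.12, adjusted p 0.0402), and with library totals in place of TMM its adjusted p was 0.0540. At day 8 it had 36.2 and 15.6 CPM in the libraries labelled WT and 23.1 and 17.4 CPM in those labelled K700E, all below the day 4 libraries of both genotypes.

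Neither glucose transporter passed the test. SLC2A1 (GLUT1), the common hypoxia-induced transporter, had 75.9 and 86.6 CPM in WT and 61.4 and 43.7 CPM in K700E at day 4 (log2 change -0.63, SE 0.20, adjusted p 0.168). SLC2A3 (GLUT3), the high-affinity transporter, had 402 and 389 against 444 and 265 CPM (log2 change -0.16, SE 0.25, adjusted p 0.758). SLC2A3 overlapped between genotypes at day 4 and SLC2A1 did not. Per intron SLC2A3 was the higher, with 42.8 against 9.03 CPM in WT at day 4, and 6.52% of its reads mapped to several places. At day 8 SLC2A1 had 55.5 and 87.3 CPM in the libraries labelled WT and 68.7 and 115 CPM in those labelled K700E, and SLC2A3 had 445 and 329 against 394 and 440 CPM.

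The mitophagy receptors BNIP3 and BNIP3L were both lower in K700E at day 4 without passing the test. BNIP3 had 109 and 170 CPM in WT and 65.4 and 56.9 CPM in K700E (log2 change -1.19, SE 0.24, adjusted p 0.0953). BNIP3L had 262 and 265 against 118 and 78.8 CPM (log2 change -1.42, SE 0.21, adjusted p 0.0654). At day 8 BNIP3 had 14.6 and 23.4 CPM in the libraries labelled WT and 17.8 and 22.8 CPM in those labelled K700E, all below every day 4 library. BNIP3L had 148 and 72.6 against 100.1 and 73.0 CPM there.

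The stress and signalling targets followed the same order. NDRG1, a stress-response gene, had 112 and 90.1 CPM in WT and 39.5 and 27.9 CPM in K700E at day 4 (log2 change -1.58, SE 0.22, adjusted p 0.0607). VEGFA, the angiogenic growth factor, had 259 and 212 against 140 and 71.7 CPM (log2 change -1.15, SE 0.33, adjusted p 0.146). ADM, the vasodilator peptide adrenomedullin, reached only 0.983 and 1.46 against 0.179 and 0.446 CPM, with 183 reads over the 8 libraries, and was too low for the day 8 fit. ANKRD37 had 9.94 and 10.2 against 2.00 and 1.06 CPM (log2 change -2.71, SE 0.37, adjusted p 0.0607). MXI1, a MAX-binding antagonist of MYC, had 27.5 and 30.6 against 18.5 and 16.5 CPM (log2 change -0.73, SE 0.18, adjusted p 0.121). These 5 genes did not overlap between genotypes at day 4, and none passed the test.

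At day 8 NDRG1 had 64.6 and 37.7 CPM in the libraries labelled WT and 29.95 and 65.9 CPM in those labelled K700E. VEGFA had 82.7 and 57.0 against 63.8 and 62.0 CPM, and ANKRD37 had 3.82 and 0.722 against 1.55 and 0.728 CPM. MXI1 had 13.4 and 10.0 against 7.03 and 7.89 CPM and was the 1 target whose libraries labelled K700E stayed below those labelled WT at day 8.

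HIF also raises genes of oxygen sensing and histone demethylation. KDM3A, a histone H3 demethylase, had 419 and 396 CPM in WT and 232 and 173 CPM in K700E at day 4 (log2 change -1.01, SE 0.17, adjusted p 0.0815). EGLN3, an inducible prolyl hydroxylase, had 12.8 and 15.1 against 5.01 and 2.74 CPM (log2 change -1.85, SE 0.35, adjusted p 0.0877). EGLN1, the prolyl hydroxylase that sets the HIF set point in normal oxygen, had 31.9 and 33.6 against 31.4 and 30.03 CPM (log2 change -0.09, SE 0.15, adjusted p 0.772). EGLN3 and EGLN1 thus differed in the size of their change, which was not tested between them. At day 8 KDM3A had 182 and 120 CPM in the libraries labelled WT and 148 and 171 CPM in those labelled K700E. EGLN3 had 4.65 and 3.43 against 2.62 and 4.09 CPM, and EGLN1 had 24.1 to 29.05 CPM over the 4 libraries.

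The HIF subunits did not share a direction. HIF1A had 93.3 and 91.1 CPM in WT and 127 and 100 CPM in K700E at day 4 (log2 change 0.30, SE 0.16, adjusted p 0.329). EPAS1 (HIF-2 alpha) had 46.3 and 35.2 against 21.7 and 21.1 CPM (log2 change -0.93, SE 0.19, adjusted p 0.101). ARNT had 230 and 212 against 166 and 146 CPM (log2 change -0.50, SE 0.13, adjusted p 0.133). None of the 3 passed the test, and HIF1A protein, the level that oxygen controls, was not measured. At day 8 HIF1A had 79.7 and 72.5 CPM in the libraries labelled WT and 59.2 and 123 CPM in those labelled K700E. EPAS1 had 92.3 and 46.6 against 82.9 and 70.1 CPM, and ARNT had 188 and 149 against 110 and 118 CPM.

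**Figure D3:**
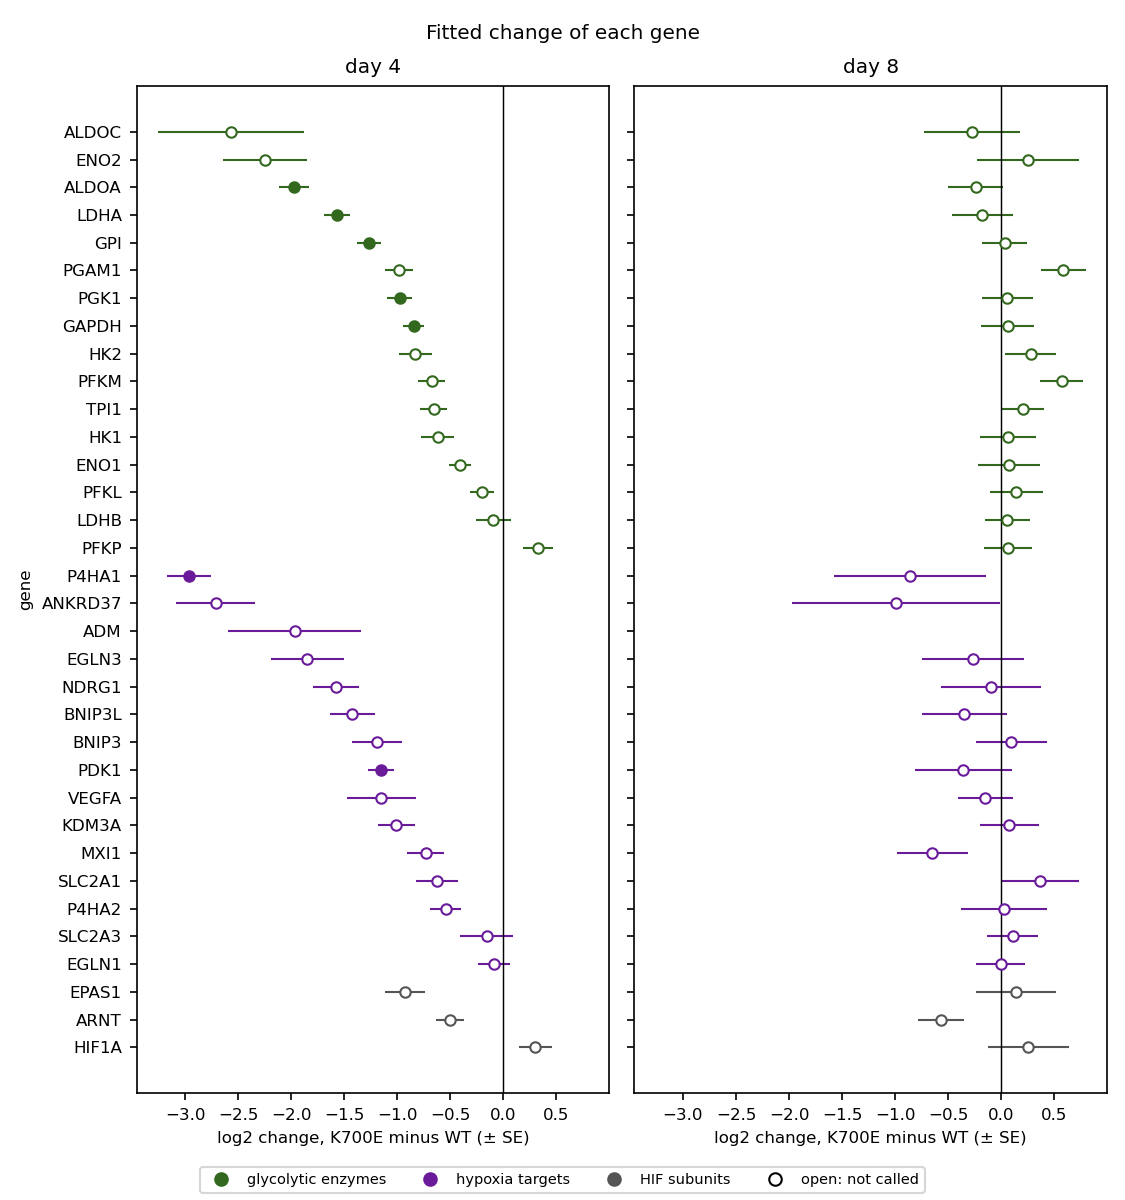
Fitted log2 change of each gene, K700E minus WT, with its standard error, at day 4 and day 8, coloured by group and filled where the adjusted p was under 0.05. Filled points appear at day 4 alone (7 genes), 32 of 34 day 4 points lie left of 0, and 13 of 33 day 8 points do.

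At day 8 no difference between the labelled genotypes was called. Of 33 members tested, 0 passed and 13 were below 0, with 3 at an unadjusted p under 0.05 (PGAM1 and PFKM higher, ARNT lower), where 2.02% of all genes were higher and 0.986% lower by that rule. Over all genes 0 of 13990 passed, 0%, with 420 below 0.05 before adjustment, and DESeq2 called 20 (0.143%), none of them a member. Both libraries labelled K700E were below both labelled WT for 2 members (13.2% of all genes) and above them for 4 (19.0% of all genes). Without WT replicate 2, which went against its label, 20 of 33 members were below 0, and without K700E replicate 1, 11 of 33 were. Leaving out WT replicate 1 left 7 below 0 and leaving out K700E replicate 2 left 26. Among the 6 members without overlap, PGAM1 had a day 8 log2 change of 0.58 with 4 libraries, 0.63 without WT replicate 2 and 0.70 without K700E replicate 1. PFKM had 0.57, 0.50 and 0.55 in the same order, HK2 had 0.28, 0.53 and 0.29, and TPI1 had 0.20, 0.20 and 0.25. ARNT had -0.57, -0.72 and -0.52, and MXI1 had -0.65, -0.84 and -0.57. Groups without overlap keep their direction when 1 library is left out, so the sign was fixed in advance and is no separate support. None of the 6 passed the adjusted threshold with 4 libraries. The biological coefficient of variation was 0.517 at day 8 and 0.277 at day 4.

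The change of the difference between days was tested in 1 model over the 8 libraries. It called 0 of 14902 genes, 0%, with 1371 at an unadjusted p under 0.05. Of the members, 17 were at an unadjusted p under 0.05, all with a less negative or more positive change at day 8 (5.69% of all genes), and none passed the adjusted threshold. DESeq2 called 193 genes, among them 7 enzymes and no target. All 7 had the higher change at day 8, as did 0.718% of all genes by that rule. The list was proposed with these levels known, and each day 8 group holds 1 library that went against its label. Nothing is therefore read from the difference between these counts and the background.

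Enzymes and hypoxia targets were compared by their medians, with no test of the difference. The median log2 change at day 4 was -0.84 over 16 enzymes, 5 of them called, and -1.15 over 15 targets, 2 of them called. The enzyme median was 0.32 higher than the target median, and this difference ranged from 0.22 to 0.45 without each library in turn. A related spread was taken from levels relative to each gene's mean. The enzyme minus target median of single libraries had an SD of 0.236 between replicates of a genotype. That is a spread of levels and not of the difference in changes. Relative to each gene's mean over the 8 libraries, the median enzyme stood at 0.45 and 0.53 in WT and at -0.30 and -0.33 in K700E on the log2 scale. The median target stood at 1.09 and 1.07 in WT and at -0.04 and -0.53 in K700E. The targets thus stood farther above their own mean in the WT day 4 libraries than the enzymes did.

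At day 8 the medians were 0.06 for enzymes and -0.12 for targets, against 0.04 over all genes. The enzyme median was 0.19 higher than the target median. The SD between replicates of the relative levels, taken as at day 4, was 0.282. The enzyme medians by library were -0.09 and -0.19 in the libraries labelled WT and -0.25 and 0.11 in those labelled K700E. The target medians were -0.12 and -0.62 against -0.52 and -0.57. The groups overlapped in both lists, and for targets WT replicate 1 stood above the other 3 libraries. Leaving out that library turned the target median to 0.30, leaving out WT replicate 2 made it -0.41, and leaving out K700E replicate 1 made it 0.03. The enzyme median was 0.05 without WT replicate 2 and 0.25 without K700E replicate 1.

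**Figure D4:**
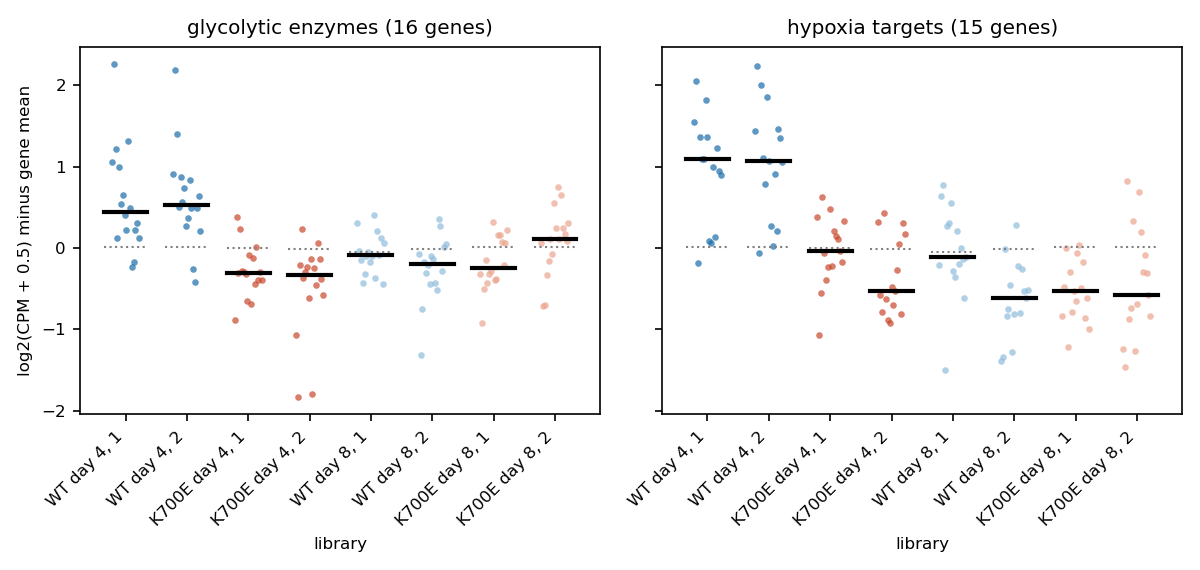
Level of each gene relative to its mean over the 8 libraries, log2(CPM + 0.5), with points for single genes, black bars for the list median and dotted lines for the median of all genes tested at both days. Both WT day 4 bars lie above the other 6 in each panel, by more for targets (1.09 and 1.07) than for enzymes (0.45 and 0.53).

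Genes of the same pathways outside the members had medians nearer to 0 than the members did. Since the members were proposed with these gene levels known, the contrast with these and the next lists may follow from that choice. Nothing is read from it. Among 29 other HIF targets tested at day 4, the median log2 change was -0.59 and 0 were called by edgeR, with 12 lower and 1 higher before adjustment (p under 0.05), while DESeq2 called 9 lower. Before adjustment 11.1% of all genes were lower and 10.3% higher, and DESeq2 called 6.15% of all genes lower and 5.57% higher. DDIT4, an mTORC1 inhibitor, had 95.5 and 89.3 CPM in WT and 28.7 and 15.1 CPM in K700E, and CA9, a carbonic anhydrase, had 2.55 and 1.21 against 0.386 and 0 CPM. At the other end CAVIN1 had a log2 change of 0.75 (SE 0.26) and BHLHE41 one of 0.52 (SE 1.12). Oxygen sensing and HIF turnover had a median of -0.32 over 11 genes with 0 called, 2 lower before adjustment, and DESeq2 called 1 lower. VHL, the adaptor that marks HIF for destruction, had 38.7 and 38.5 against 14.2 and 18.6 CPM (log2 change -1.24, SE 0.20, adjusted p 0.0703). SIAH1, a ubiquitin ligase of EGLN proteins, had -0.99 (SE 0.52), and CUL2 and HIF1AN, at the other end, had 0.13 and 0.10.

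Neighbouring metabolism had medians close to 0. The other glycolytic and pyruvate enzymes had a median of -0.03 over 16 genes with 0 called, 2 higher and 2 lower before adjustment, and DESeq2 called 1 higher. PKLR, the pyruvate kinase of red cells and liver, had 33.0 and 42.4 CPM in WT and 14.3 and 3.29 CPM in K700E. HKDC1 had a log2 change of -1.46 (SE 1.33) from 14 and 18 reads in WT and 14 and 0 in K700E. PDK4 had a log2 change of 2.51 (SE 0.98), carried by 1 library, with 0.510 and 1.34 CPM in WT and 1.34 and 9.32 CPM in K700E. PFKFB1 had a log2 change of 1.38 (SE 0.71) from low counts. The pentose phosphate pathway, which draws off glucose 6-phosphate, had a median of -0.04 over 7 genes with 0 called, 1 lower before adjustment, and DESeq2 called 1 lower. TKT had -0.45 (SE 0.11) and TALDO1 -0.23 (SE 0.12), while RPIA had 0.52 (SE 0.21) and RPE 0.20 (SE 0.24).

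Of 9 megakaryocyte markers, 4 had enough reads to be tested at day 4, and edgeR called 1 of them, ITGA2B, while DESeq2 called 3, all higher. ITGA2B, the platelet integrin, had 11.9 and 21.1 CPM in WT and 98.2 and 99.2 CPM in K700E (log2 change 2.58, SE 0.29, adjusted p 0.0437). It made up most of the sum over the 9 markers, which was 12.6 and 24.2 CPM in WT and 127 and 126 CPM in K700E. At day 8 the markers summed to 96.2 and 79.6 CPM in the libraries labelled WT and to 39.5 and 516 CPM in those labelled K700E. Erythroid markers summed to 2436 and 1999 against 1972 and 1039 CPM at day 4, with 0 of 15 called by edgeR, 2 lower before adjustment and DESeq2 calling 2. Epithelial markers summed to 868 and 987 against 688 and 488 CPM, with 0 of 5 tested called, 4 lower before adjustment and DESeq2 calling 3. The part of these markers in the members' change was not tested.

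Acceptor use within a donor does not depend on gene sums and was tested apart. Of 216 junctions tested in 27 members at day 4, 0 were called at an adjusted p under 0.05 and a change of 5 percentage points, with 21 at an unadjusted p under 0.05, as were 6.98% of all junctions, by edgeR's diffSpliceDGE and 0 called by limma. Among all 69838 junctions 322 were called, 0.461%. Junctions with reads across a shared donor thus gave no called change in acceptor choice in these genes.

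The smallest p belonged to an unannotated acceptor of ENO1 (chromosome 1, intron 8864078 to 8865284, minus strand), 15 nt downstream of the most used acceptor of its donor. Its use was 0% in both WT libraries (0 of 14145 and 0 of 16385 donor reads, which allow at most 0.0261% and 0.0225% by the exact 95% interval). In K700E it was 0.197% (0.134% to 0.279%) and 0.321% (0.227% to 0.440%), 31 and 38 reads. The adjusted p was 0.00224, and the change of 0.259 points stayed under the 5 points a call needed. Day 8 use was 0% and 0.597% under the label WT and 0% and 0.552% under the label K700E. The libraries with use above 0 were the 4 in which the known K700E targets had a median use of at least 33.0%. Intervals cover counting error only.

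BNIP3 held the next one, an annotated acceptor (chromosome 10, intron 131970012 to 131970637, minus strand) used by 2.51% and 3.37% of donor reads in WT and by 0.394% and 0% in K700E at day 4 (adjusted p 0.0796). No day 8 library had a read there, at 163 to 327 donor reads. At the same donor an unannotated acceptor, singled out after its values were seen, was used by 0% and 0.128% in WT and by 1.67% and 0.966% in K700E. Its day 8 use was 0% and 8.30% in the libraries labelled WT and 1.21% and 8.56% in those labelled K700E. In EGLN1 an unannotated acceptor (chromosome 1, intron 231366476 to 231370561, minus strand) was used by 16.5% and 13.3% in WT and by 7.62% and 2.59% in K700E, an adjusted p of 0.189. At day 8 it took 4.24% and 9.11% against 8.82% and 7.76%.

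**Figure D5:**
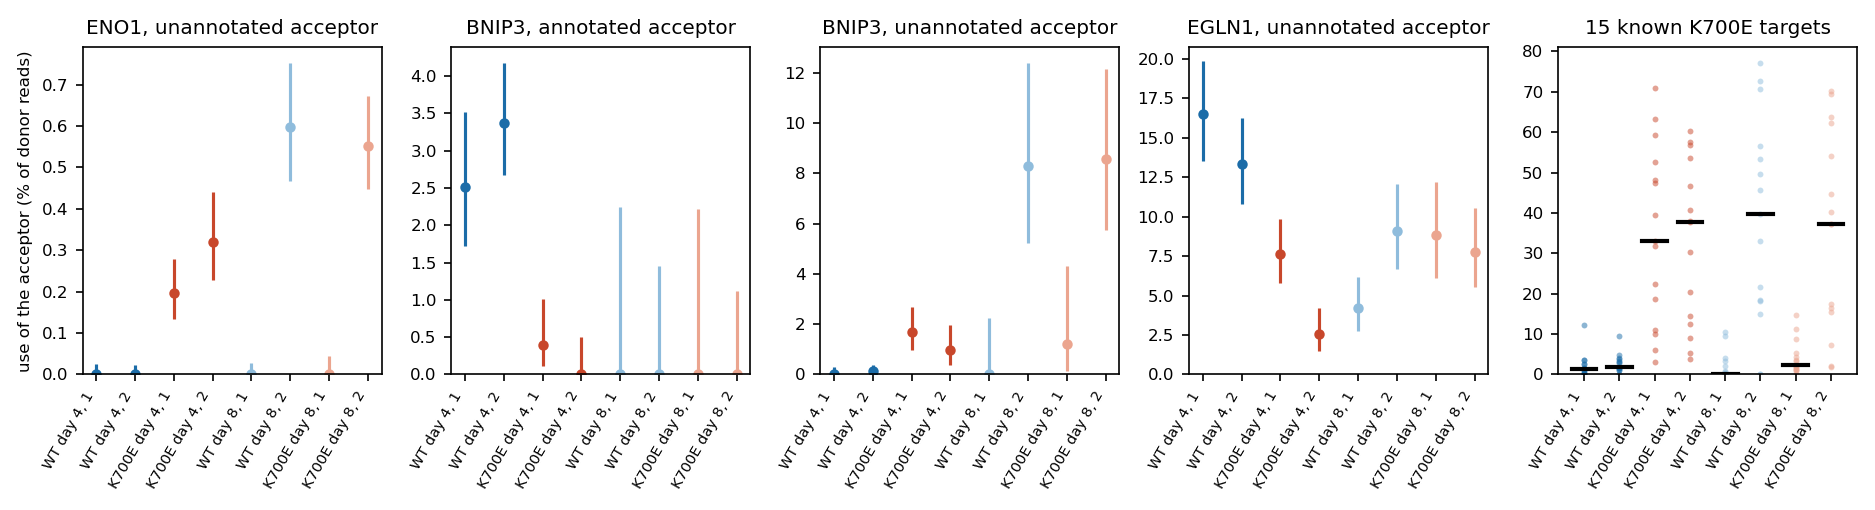
Use of 4 acceptors in ENO1, BNIP3 and EGLN1 in each of the 8 libraries, as a percentage of the reads of their donor, with exact 95% binomial intervals. The right panel has the upstream acceptors taken in 15 known K700E target genes (points, with black bars for medians). The ENO1 acceptor is above 0 in both K700E day 4 libraries, in WT day 8 replicate 2 and in K700E day 8 replicate 2, the 4 libraries with medians of 33.0% to 39.7% in the right panel.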

How the data were processed

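Total RNA libraries of K562 cells were read from the splice junction tables. The deposited values are counts of uniquely mapped reads (main analysis) and of multi-mapped reads per junction, not normalized. The submitters' processing notes name cutadapt, STAR and the hg38 build. Per the file headers the version was STAR 2.7.0e, alignment was end to end, GENCODE 29 was in the index, GENCODE 22 was added at mapping, and a read could map to 10 places. Strand is kept by the library protocol, per the labels' protocols. Unspliced genes and intronless transcripts are not measured.

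Unique reads were summed per gene over GENCODE 29 introns of 1 gene; introns of several genes held 4.17% of reads and were left out. Each day's 4 libraries were fitted with edgeR 4.0.16 (quasi-likelihood, filterByExpr, TMM factors from 8 libraries, K700E minus WT, Benjamini-Hochberg over all genes). Days were fitted apart since an earlier analysis had shown a wider spread, and splicing against the labels, at day 8. Junctions needed 5 reads in 2 libraries and donors a mean of 20 reads; diffSpliceDGE was used, with limma 3.58.1 and DESeq2 1.42.0 as alternatives (R 4.3.3). Steps were tested on simulated data. Promoter windows are from RefSeq.

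Members and lists were chosen with earlier results of these data known. Named genes are members called at either day, those without overlap at day 4 and a log2 change of at least 0.5, HIF subunits and paralogue pairs, and of other lists the called genes and the 2 largest changes each way. Junctions named are the called ones and the 3 with the smallest p, plus 1 in BNIP3 chosen after its values were seen.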

Additional observations from a re-analysis of the deposited data

How the results depend on the processing

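At day 4 calls varied between alternatives, and the direction of most members was already fixed by groups that did not overlap. At day 8 no member was called in any alternative that kept all libraries. Over all day 8 alternatives, 7 to 26 of 33 or 34 members were below 0. At day 4 the count of genes called went from 76 to 1550 with no filter, 1640 with DESeq2 and 0 in the 8-library model, and ranged from 0 to 2306 without each library in turn; members called went from 7 to 4 with library totals alone, 25 with no filter, 24 with DESeq2 and 0 in the 8-library model, and ranged from 0 to 26 without each library. The replicate block, whose numbers are not said to pair samples (correlation of deviations 0.10 at day 4 and 0.27 at day 8), called 144 genes and 9 members at day 4, adding ENO2 and NDRG1, and no gene at day 8. Library totals alone moved the median of all genes at day 4 to 0.11 and the enzyme median from -0.84 to -0.73; without each library the enzyme median ranged from -0.88 to -0.75. At day 8 DESeq2 called 20 genes; the target median ranged from -0.41 to 0.30 without each library and the enzyme minus target difference ranged from -0.16 to 0.46. The interaction called 101 genes with no filter and 193 with DESeq2. Junction calls ranged from 8 to 112 without each library, against 322. Counting introns shared with another gene was added after the data were seen and kept all 7 called members.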
